A study of Homo sapiens with 16 samples.

Results

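The 10 genes described here encode the glucose transporter SLC2A1 and 9 enzymes of glycolysis, HK2, PFKP, ALDOA, TPI1, GAPDH, PGK1, PGAM1, ENO1 and LDHA. They were chosen by name, and all 10 were found among the 20314 genes counted in U251 cells and the 20626 counted in U343 cells. U251 and U343 are human glioblastoma cell lines grown in culture. Cells received either the mimic of miR-137 or a control mimic, each at 25 nM. RNASeq counted the ribosomal RNA-depleted total RNA of cells harvested after 48 hours. RIPSeq counted the RNA that came down with a mix of antibodies to PABP, the poly(A)-binding protein that coats the tails of mRNAs. Each of the 4 experiments (RNASeq and RIPSeq in either line) had 2 control and 2 miR-137 libraries, and nothing in the labels says whether these came from separate cultures, so the tests measure only the spread between these libraries. The cDNA of U251 was primed with random hexamers and that of U343 was made with a TotalScript kit, before Nextera tagging in both, so the line and the cDNA method cannot be told apart.

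Glycolysis turns glucose into pyruvate in the cytosol and yields ATP without oxygen. SLC2A1 (also called GLUT1) brings glucose into the cell, HK2 phosphorylates it, and PFKP adds the second phosphate at a controlling step. ALDOA splits the sugar, TPI1 interconverts the triose products, GAPDH oxidises them, PGK1 makes ATP, PGAM1 and ENO1 prepare the last intermediate, and LDHA reduces pyruvate to lactate. Tumor cells, glioblastoma included, commonly run this pathway to lactate even when oxygen is present. The transcription factor HIF-1, whose subunit HIF1A is kept low when oxygen is plentiful, switches on many of these genes.

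In hg18, the build of the deposited tables, the counted spans on the plus strand were HK2 at chr2:74913290-74973989, PFKP at chr10:3099752-3168996, ALDOA at chr16:29971992-29989236, TPI1 at chr12:6846845-6850369, GAPDH at chr12:6513918-6517797, PGK1 at chrX:77246322-77268980, PGAM1 at chr10:99176017-99183188 and LDHA at chr11:18372512-18386341. SLC2A1 and ENO1 lie on the minus strand of chromosome 1, SLC2A1 at chr1:43163633-43197434 and ENO1 at chr1:8843650-8861367. Reads were counted over the exons of each gene as a single super-transcript, and lengths of exons were not available in the tables, so levels are compared between libraries and not between genes.

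A miRNA pairs with its target mRNAs mainly through its seed, bases 2 to 8. The mature miR-137 listed by RefSeq (GRCh38.p14, chr1:98046091-98046113, minus strand) is shown because it is the molecule the transfected mimic stands for, with the seed in capitals. The sequence of the mimic itself is not given in the sources used here, and no transcript sequences of the members were searched for its sites.
hsa-miR-137-3p: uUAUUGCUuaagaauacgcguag

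RefSeq promoter windows (250 bases before to 50 after each annotated start, GRCh38.p14) were found for all 10 members, 18 windows in all. ACGTG, a form of the core letters of a HIF site, was searched for on either strand. It occurred in 10 of these 18 windows and in 21.4% of all 35116 windows. Other forms of the core, such as GCGTG, were not searched for, so a window without a match may still hold one. CACGTG, the E-box core, reads as ACGTG on both strands and counts as 2 matches. The first listed window is printed for HK2, which rose in U251 total RNA, and for LDHA and ENO1, the members that fell most there, with motif letters in capitals. The HK2 window (chr2:74833877-74834176, plus strand) held 2 matches and the LDHA window (chr11:18394313-18394612, plus strand) held 5, whereas the ENO1 window (chr1:8878637-8878936, minus strand) held 0. The second listed window held 4 matches for HK2 and 0 for LDHA, so the order of these genes depends on the window. A match is a description of letters only, and binding was not measured.
HK2: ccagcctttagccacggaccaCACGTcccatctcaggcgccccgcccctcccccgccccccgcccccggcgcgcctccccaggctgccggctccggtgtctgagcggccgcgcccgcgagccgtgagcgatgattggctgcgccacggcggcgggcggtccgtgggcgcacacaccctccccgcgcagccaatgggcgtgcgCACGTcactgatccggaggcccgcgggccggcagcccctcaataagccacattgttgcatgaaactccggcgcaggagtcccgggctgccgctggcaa
LDHA: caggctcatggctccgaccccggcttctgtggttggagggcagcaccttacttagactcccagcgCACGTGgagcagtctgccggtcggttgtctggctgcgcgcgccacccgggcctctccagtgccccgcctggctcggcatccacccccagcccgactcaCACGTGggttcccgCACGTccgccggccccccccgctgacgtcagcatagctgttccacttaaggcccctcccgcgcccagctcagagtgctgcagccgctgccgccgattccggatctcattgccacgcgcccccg
ENO1: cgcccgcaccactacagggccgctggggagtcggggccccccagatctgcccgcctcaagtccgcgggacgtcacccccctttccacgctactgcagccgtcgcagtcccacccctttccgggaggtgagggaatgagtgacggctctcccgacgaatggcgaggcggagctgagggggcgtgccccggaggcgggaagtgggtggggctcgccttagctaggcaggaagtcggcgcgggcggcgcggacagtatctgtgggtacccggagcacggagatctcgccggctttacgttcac

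Libraries held 10156675 to 18224061 reads on genes in U251 RNASeq, 22359794 to 30731476 in U251 RIPSeq, 37952273 to 45134766 in U343 RNASeq and 37736206 to 45055184 in U343 RIPSeq. All replicate pairs differed by more than sampling noise, with a chi-square per degree of freedom from 2.63 to 23.2 in 6 groups, and 2 groups stood apart. It was 247 for the U251 RIPSeq control pair and 185 for the U343 RNASeq miR-137 pair. The 8 glioma or astroglia markers summed to between 6444 and 16377 CPM (counts scaled to a common library size) in every library. OLIG2 was at or near 0 throughout. In U251 RNASeq controls VIM (mean 8195 CPM after TMM scaling) and CD44 (3589 CPM) supplied most of the sum. GFAP averaged 32.0 CPM there and S100B only 1.75 CPM. In U251 RNASeq this sum went from 11362 and 11336 CPM in the controls to 6444 and 6898 CPM after miR-137. The 9 markers of blood, endothelium, epithelium and liver summed to at most 6.98 CPM in U251 and to between 94.6 and 149 CPM in U343, where CDH1, CDH5 and VWF supplied most of the reads. HBB, EPCAM and ALB were at or near 0 in both lines.

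In U251 total RNA, miR-137 transfection was followed by a rise of HK2 and a fall of PFKP, GAPDH, ENO1 and LDHA (edgeR quasi-likelihood test, Benjamini-Hochberg adjusted p under 0.05). LDHA fell most. The remaining 5 members, SLC2A1, ALDOA, TPI1, PGK1 and PGAM1, did not pass the test. Among all 13052 genes tested, 28.7% were called higher and 29.0% lower, beside 1 and 4 of the 10 members. The median log2 fold change of the 10 members was -0.31, beside 0.02 over all genes tested. In the same libraries 5 of 7 tested glioma or astroglia markers fell and 1 rose, with a median of -1.19, and their part in the members' changes was not tested. Together the members took 1.37% and 1.61% of all reads in the control libraries and 1.09% and 1.30% in the miR-137 libraries.

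HK2, the hexokinase bound to mitochondria in many tumors, had 14.4 and 11.9 CPM in the control libraries and 42.4 and 33.2 CPM in the miR-137 libraries, after scaling by TMM. Both miR-137 libraries lay far above both controls, and the rise was 1.52 ± 0.17 on the log2 scale (SE, n = 2 and 2, adjusted p = 5.81e-06). The counts behind these values were modest, from 195 to 470 reads per library. LDHA had 46.1 and 55.5 CPM in the controls and 19.3 and 24.1 CPM after miR-137. The groups did not overlap, and the log2 fold change was -1.22 ± 0.16 (SE, n = 2 and 2, edgeR adjusted p = 2.22e-05). ENO1, the main enolase of most tissues, had 5090 and 6510 CPM in the controls and 2888 and 3429 CPM after miR-137, a log2 fold change of -0.88 ± 0.19 (edgeR adjusted p = 0.00126). GAPDH, often used as a reference gene for other measurements, had 5516 and 6649 CPM in the controls and 3456 and 3808 CPM after miR-137, a log2 fold change of -0.74 ± 0.18 (edgeR adjusted p = 0.00282). For both genes the lowest control library lay well above the highest miR-137 library. PFKP had 379 and 357 CPM in the controls and 287 and 287 CPM after miR-137, a small change of -0.36 ± 0.13 (edgeR adjusted p = 0.0303). SLC2A1 had 705 and 596 CPM in the controls and 503 and 534 CPM after miR-137, without overlap, but the difference of -0.33 ± 0.14 missed the threshold (edgeR adjusted p = 0.0646). ALDOA, TPI1 and PGAM1 had overlapping groups, with log2 values of -0.28, -0.24 and -0.30. PGK1 stood at 0.08 ± 0.17, and its control and miR-137 libraries overlapped too. With 2 libraries per group a lack of overlap can readily arise by chance. The share of all genes without overlap is not given, here or below.

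**Figure D1:**
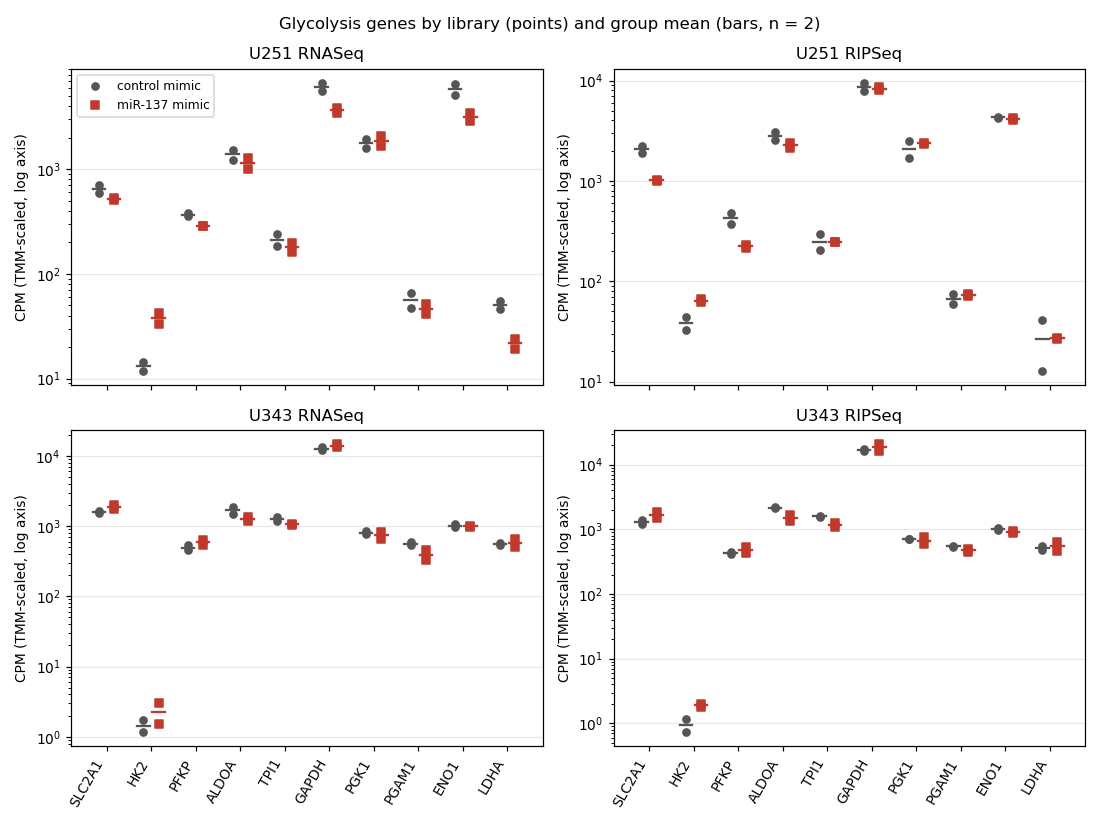
CPM (TMM-scaled within each experiment, log axis) of the 10 members in every library, with control libraries as grey circles, miR-137 libraries as red squares and the mean of 2 libraries as a bar. In U251 RNASeq the HK2 squares lie above the circles and the GAPDH, ENO1 and LDHA squares below them. In U251 RIPSeq the control circles of LDHA are spread from 12.9 to 40.8 CPM.

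The size of these changes depended on how libraries were scaled, because the median over all genes moved from 0.02 with TMM to 0.16 with upper-quartile factors and 0.28 with library totals. With library totals HK2 still rose (1.78) and GAPDH (-0.48), ENO1 (-0.61) and LDHA (-0.96) still fell, all with an edgeR adjusted p under 0.05, whereas PFKP came to -0.09 (adjusted p = 0.537) and TPI1 changed sign to 0.03. HK2, GAPDH, ENO1 and LDHA also kept their calls when any 1 of the 4 libraries was left out, whereas PFKP lost its call without either control library (adjusted p = 0.189 and 0.103). Without miR-137 library 2, 9 members were called, 1 higher and 8 lower, where 51.3% of all genes tested were called. In a joint fit of the 8 U251 libraries, where 20.8% of genes were called, LDHA (-1.21 ± 0.45, edgeR adjusted p = 0.0957) and PFKP (-0.34 ± 0.20, adjusted p = 0.252) lost their calls.

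In U251 PABP-bound RNA, no member passed the edgeR test, where 0.944% of 14087 genes were called higher and 0.263% lower. DESeq2 called 0 members too, where it called 7.97% of all genes tested. With edgeR 3 members had an unadjusted p under 0.05, SLC2A1, PFKP and HK2, beside 2828 of the 14087 genes tested. SLC2A1 had 2242 and 1887 CPM in the controls and 1004 and 1021 CPM after miR-137. The miR-137 libraries lay far below both controls, with a log2 fold change of -1.03 ± 0.17 (SE, n = 2 and 2, edgeR adjusted p = 0.0809). PFKP had 480 and 374 CPM in the controls and 217 and 228 CPM after miR-137, also without overlap, with a log2 fold change of -0.94 ± 0.23 (edgeR adjusted p = 0.138). HK2 had 32.8 and 44.2 CPM in the controls and 66.7 and 61.9 CPM after miR-137, a log2 fold change of 0.74 ± 0.27 (edgeR adjusted p = 0.242). The log2 values of GAPDH, ENO1 and LDHA were -0.06, -0.06 and 0.01.

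The U251 RIPSeq controls limited this experiment. LDHA had 300 reads in control library 1 and 1140 in control library 2, against 695 and 745 reads in the miR-137 libraries. Both miR-137 libraries thus fell between the controls. Without control library 1, 7 members were called, 2 higher and 5 lower, and without control library 2, 9 members were called, 5 higher and 4 lower. In these fits 68.1% and 74.4% of all genes tested were called, so the members' counts are near those of genes in general. LDHA went to -0.60 in the first case and to 1.16 in the second. SLC2A1 (-0.90 and -1.06), PFKP (-0.75 and -1.02) and HK2 (0.54 and 1.06) had the same direction in both cases. Both of their controls lay on the same side of both miR-137 libraries, so this follows largely from the values already given. ALDOA likewise stayed below 0 whichever library was left out (-0.34 to -0.16). In these fits the lone library was assumed to vary as the other group did.

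In U343 total RNA, no member passed the edgeR test, although 8.31% of 15088 genes were called higher and 11.7% lower. DESeq2 called 1 member, PGAM1, where it called 28.5% of all genes tested. With edgeR 2 members had an unadjusted p under 0.05, PGAM1 and ALDOA, beside 5551 of the 15088 genes tested. PGAM1 had 532 and 586 CPM in the controls and 327 and 450 CPM after miR-137. The groups did not overlap, and the log2 fold change was -0.53 ± 0.18 (SE, n = 2 and 2, edgeR adjusted p = 0.112). ALDOA had 1492 and 1896 CPM in the controls and 1184 and 1368 CPM after miR-137, a log2 fold change of -0.41 ± 0.15 (edgeR adjusted p = 0.130). HK2 was sparse in this line, with 54 and 65 reads in the controls and 64 and 127 after miR-137, and its value of 0.65 ± 0.42 did not pass. The other 7 members lay between -0.24 and 0.25. PGAM1 was called without miR-137 library 2 (-0.78, adjusted p = 0.00376) and HK2 without miR-137 library 1 (1.06, adjusted p = 0.0297), in fits that called 37.7% and 39.6% of all genes tested.

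In U343 PABP-bound RNA, HK2 rose and ALDOA and TPI1 fell. HK2 had 1.15 and 0.738 CPM in the controls and 1.82 and 1.97 CPM after miR-137, from 30 to 77 reads per library. Both miR-137 libraries lay above both controls, a rise of 0.99 ± 0.25 on the log2 scale (SE, n = 2 and 2, edgeR adjusted p = 0.0120). ALDOA, which splits fructose bisphosphate, had 2179 and 2152 CPM in the controls and 1654 and 1343 CPM after miR-137, a log2 fold change of -0.53 ± 0.15 (edgeR adjusted p = 0.0162). TPI1, which interconverts the triose phosphates, had 1570 and 1605 CPM in the controls and 1266 and 1081 CPM after miR-137, a log2 fold change of -0.44 ± 0.13 (edgeR adjusted p = 0.0231). The control libraries of both genes agreed closely and lay above both miR-137 libraries. SLC2A1 had 1387 and 1222 CPM in the controls and 1823 and 1504 CPM after miR-137, and its value of 0.35 ± 0.15 missed the threshold (edgeR adjusted p = 0.0748). Of all 14866 genes tested 28.5% were called higher and 27.8% lower, beside 1 and 2 of the 10 members. With 1 library left out, which leaves a single library in its group, HK2 ranged from 0.70 to 1.35, ALDOA from -0.69 to -0.39 and TPI1 from -0.56 to -0.33. Each of these members lost its call in some of these fits, although many genes of all kinds were still called.

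**Figure D2:**
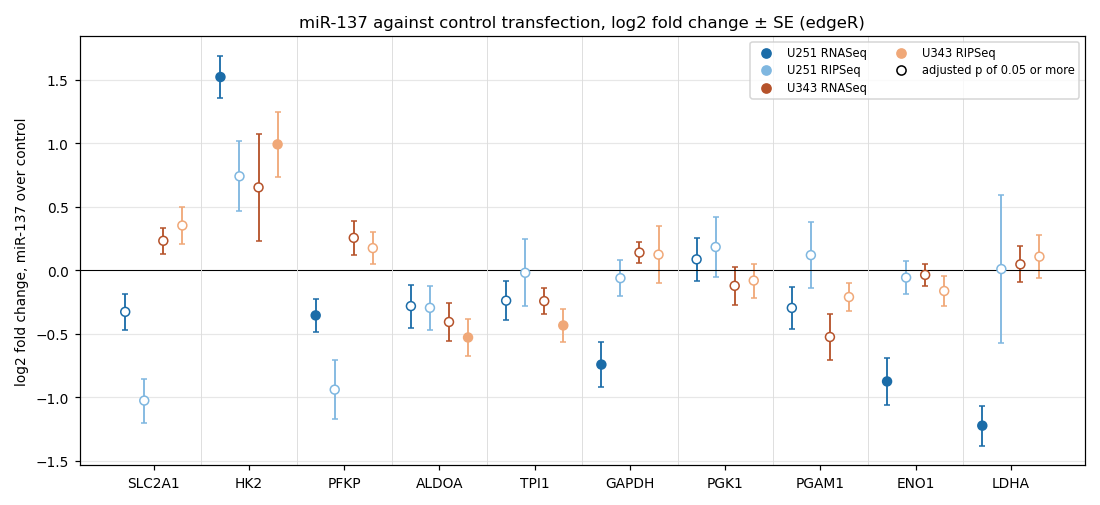
Log2 fold change of miR-137 over control ± SE from edgeR for the 10 members in the 4 experiments, with filled points for an adjusted p under 0.05. HK2 lies above 0 in all 4 experiments and ALDOA below 0 in all 4, whereas GAPDH, ENO1 and LDHA lie well below 0 in U251 RNASeq only.

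The change after transfection was compared between the lines by the interaction term of edgeR, given as the change in U343 minus that in U251. In total RNA it was positive for PFKP (0.60 ± 0.18, adjusted p = 0.0441), GAPDH (0.87 ± 0.16, adjusted p = 0.00740), ENO1 (0.83 ± 0.20, adjusted p = 0.0185) and LDHA (1.26 ± 0.24, adjusted p = 0.00808). These are the 4 members that fell in U251 total RNA, and their own values in U343 total RNA were 0.25, 0.14, -0.04 and 0.05. Of all 15550 genes tested 25.2% were called, beside 4 of 10 members. GAPDH and LDHA kept the call without any 1 of the 8 libraries, whereas PFKP kept it only without U343 miR-137 library 1. ENO1 lost it without U251 control library 2 and without U343 control library 1. Its value ranged from 0.65 to 1.04 over the fits that left out 1 library. HK2 did not differ detectably between the lines in total RNA (-0.88 ± 0.46, adjusted p = 0.198), except without U343 miR-137 library 2 (-1.44, adjusted p = 0.00493).

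In PABP-bound RNA the interaction was called for SLC2A1 alone among the members, at 1.44 ± 0.24 (edgeR adjusted p = 0.0306), where 3.28% of 15959 genes were called. SLC2A1 had lower miR-137 than control values in U251 and higher ones in U343, with no overlap of libraries in either line. With any 1 library left out, which leaves a single library in its group, the value stayed between 1.27 and 1.55. The call was kept only without a U251 control library, where many genes of all kinds were called. Hardly any gene was called in the other such fits. In the fit of all 8 libraries PFKP came to 1.17 ± 0.27 (edgeR adjusted p = 0.0643).

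The change in PABP-bound RNA was likewise compared with that in total RNA within each line. The interaction was called for no member in U251, where 0.134% of 14210 genes were called, and for no member in U343, where 0.00649% of 15413 genes were called. DESeq2 called 0 members in either line, where it called 4.95% of all genes tested in U251 and 2.60% in U343. By the unadjusted p of the same edgeR fit, 4 members were under 0.05 in U251, beside 2688 of the 14210 genes tested. Their values were -0.75 ± 0.25 for SLC2A1, -0.82 ± 0.32 for HK2, 0.64 ± 0.22 for GAPDH and 0.77 ± 0.24 for ENO1. In U343, 0 members were under 0.05, beside 2712 of the 15413 genes tested. Without U251 RIPSeq control library 1, 4 members were called in U251, and without U251 RIPSeq control library 2, 6 were called, where 20.1% and 58.0% of all genes tested were called.

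The study's own rule asks for an odds ratio above 2 with an adjusted p below 0.001 (Fisher's exact test) whichever control library is set against whichever miR-137 library, 4 pairings per experiment. It does not use the spread between replicates. By its mirror for rises, HK2 was higher in U251 RNASeq, with odds ratios of 2.75 to 4.28, where 6.14% of genes were called higher and 2.21% lower. No other member was called by it in any experiment. The shares over all genes were 3.47% higher and 1.49% lower in U251 RIPSeq, 1.51% and 2.88% in U343 RNASeq, and 4.83% and 3.40% in U343 RIPSeq. With an odds ratio over 1.5 instead, LDHA was also lower in U251 RNASeq, and SLC2A1 was lower and HK2 higher in U251 RIPSeq. At that odds ratio 11.7% of genes were higher and 5.04% lower in U251 RNASeq, and 6.74% higher and 3.67% lower in U251 RIPSeq.

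Before any effect of miR-137, members differed in how much of their RNA came down with PABP relative to all genes. In U251 control cells SLC2A1 (1.82 ± 0.28 on the log2 scale, PABP-bound over total, edgeR adjusted p = 0.0220), HK2 (1.69 ± 0.33, adjusted p = 0.0316) and ALDOA (1.17 ± 0.27, adjusted p = 0.0412) were higher in the PABP-bound libraries. SLC2A1 had 635 and 531 CPM in total RNA and 2286 and 1826 CPM in PABP-bound RNA, with no overlap. Of 13242 genes 7.87% were called higher. LDHA stood at -0.79 ± 0.53, with its controls at 13.1 and 39.5 CPM in RIPSeq. With 1 library left out, which leaves a single library in its group, SLC2A1 ranged from 1.56 to 1.89, HK2 from 1.42 to 1.86 and ALDOA from 0.89 to 1.24. These 3 members lost their calls without either RNASeq control library, where few genes of any kind were called. More members were called without either RIPSeq control library, where most genes were called. In the miR-137 libraries of the same line, 9 members were higher in PABP-bound RNA and PFKP was lower (-0.26, adjusted p = 0.0200), where 32.4% of all genes tested were called higher and 33.5% lower.

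In U343 control cells ALDOA (0.46 ± 0.12, edgeR adjusted p = 0.0171), TPI1 (0.44 ± 0.10, adjusted p = 0.00795) and GAPDH (0.52 ± 0.12, adjusted p = 0.00884) were higher in the PABP-bound libraries, where 24.4% of 14878 genes were called higher. TPI1 had 1128 and 1307 CPM in total RNA and 1639 and 1672 CPM in PABP-bound RNA, with no overlap, and kept its call without any 1 library. With 1 library left out, TPI1 stayed between 0.34 and 0.56, ALDOA between 0.30 and 0.65 and GAPDH between 0.43 and 0.62. GAPDH, unlike TPI1, lost its call without RIPSeq control library 2. No member was called in the miR-137 libraries of this line, where 18.1% of all genes tested were called. In those libraries 1 member had an unadjusted edgeR p under 0.05, beside 5607 of the 15106 genes tested. SLC2A1 and HK2, higher in U251 PABP-bound RNA, were at -0.17 ± 0.10 and -0.48 ± 0.31 in the U343 controls. ALDOA was called higher in PABP-bound control RNA of both lines, but its call was lost in 3 of the 4 fits that left out 1 library in U343 and in 2 of 4 in U251.

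The lines also differed in the members' control levels in total RNA. U343 was higher for SLC2A1, PFKP, TPI1, GAPDH, PGAM1 and LDHA and lower for HK2, PGK1 and ENO1, and ALDOA did not pass (0.35 ± 0.16, edgeR adjusted p = 0.0675). With 44.9% of 14787 genes called higher and 39.9% lower, a call was the rule in this comparison. LDHA had 43.9 and 52.6 CPM in U251 and 528 and 576 CPM in U343, a difference of 3.52 ± 0.12 on the log2 scale. PGAM1 had 45.3 and 62.5 CPM in U251 and 524 and 579.5 CPM in U343, a difference of 3.35 ± 0.16. HK2 went the other way, with 13.8 and 11.3 CPM in U251 and 1.15 and 1.70 CPM in U343, a difference of -3.15 ± 0.22. ENO1 had 4854 and 6161 CPM in U251 and 949 and 1052 CPM in U343, a difference of -2.46 ± 0.16. The values were 2.63 for TPI1, 1.34 for SLC2A1, 1.12 for GAPDH, 0.47 for PFKP and -1.07 for PGK1. In absolute size the LDHA difference exceeded that of 85.1% of genes tested. Thinning U343 to the depth of U251 left the same number of calls, 6 higher and 3 lower.

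Many members have near-identical copies in the genome, and how reads matching several places were counted is not given in the sources used here. By RefSeq symbols, GAPDH has 65 annotated pseudogenes, PGAM1 13, LDHA 6, TPI1 4, ENO1 4, ALDOA 2, PGK1 2 and HK2 1, whereas SLC2A1 and PFKP have 0. The line difference was 1.12 for GAPDH with 65 annotated pseudogenes, 3.52 for LDHA with 6, and 2.63 for TPI1 and -2.46 for ENO1 with 4 each. Over the genes tested whose symbols matched RefSeq names, the median difference between the lines was 0.10 on the log2 scale for 10636 genes with 0 pseudogenes, -0.13 for 1531 genes with 1 to 4, and 0.22 for 301 genes with 5 or more, and 32.2%, 16.5% and 23.3% of these classes differed by over 2 in either direction. The other 2319 genes had no matching symbol. The part of multiply matching reads, and of the cDNA method, in these differences was not tested. TPI1 also shares 7 bases with SPSB2 on the opposite strand, and no other member overlaps a gene in the tables.

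**Figure D3:**
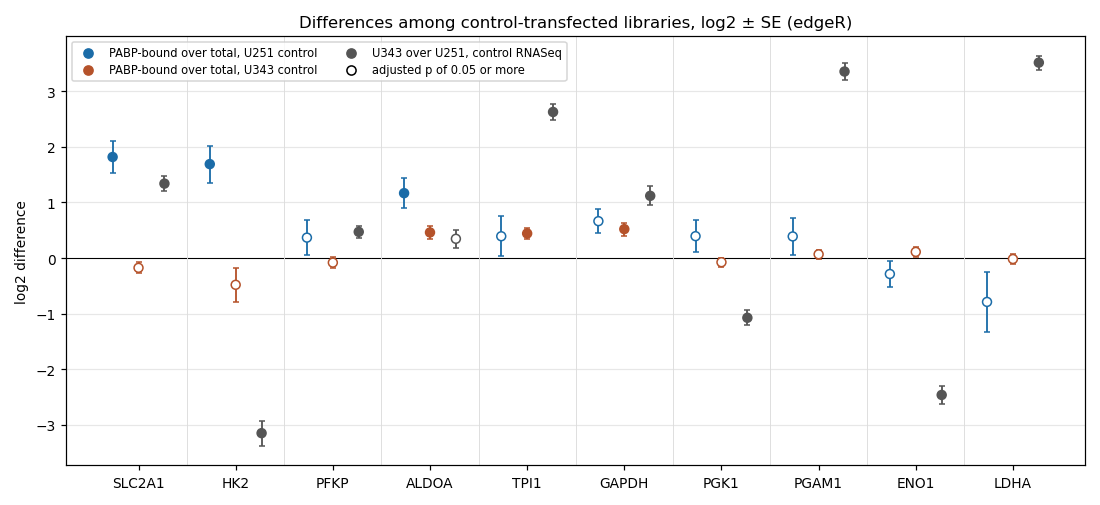
Log2 difference ± SE from edgeR among control libraries for the 10 members, as PABP-bound over total RNA in U251 (blue) and U343 (orange) and as U343 over U251 in total RNA (grey), with filled points for an adjusted p under 0.05. The grey points reach from -3.15 for HK2 to 3.52 for LDHA, and ALDOA is filled for PABP-bound RNA in both lines.

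The other genes of glucose metabolism were taken from lists fixed by name. Their calls in U251 total RNA stand beside 28.7% of all genes tested called higher and 29.0% lower. In U251 total RNA, 7 of the 15 tested isozymes and remaining steps rose and 1 fell, and 2 of 10 glucose and lactate transporters rose and 2 fell. Of 17 regulators 6 rose and 4 fell. Of 14 other HIF target genes 10 rose and 2 fell, with a median of 1.18 beside 0.02 over all genes. In the pentose phosphate pathway, the branch that makes NADPH and ribose, 6 of 9 genes fell and 0 rose, and 5 of 10 pyruvate and gluconeogenesis enzymes fell and 1 rose. TXNIP, an inhibitor of glucose uptake that is induced by glucose, rose most (3.33 ± 0.14, from 41.7 to 418 CPM), followed by CA9, a carbonic anhydrase induced by HIF-1 (1.86 ± 0.15). PFKFB2, which makes the activator of phosphofructokinase, fell most (-1.95 ± 0.18), followed by the monocarboxylate transporter SLC16A7 (-1.87 ± 0.20).

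Among genes named after their values were seen, HIF1A itself fell in U251 total RNA (-1.003 ± 0.16, edgeR adjusted p = 0.000162), and in U343 total RNA its value was -0.13 ± 0.12. ENO2, the neuronal enolase, rose by 1.53 ± 0.15 in U251 total RNA while ENO1 fell. LDHB, the other main lactate dehydrogenase subunit, fell as LDHA did (-0.94 ± 0.17). SLC16A3, which exports lactate, rose by 1.54 ± 0.13. PKM, the pyruvate kinase of the last step, stood at -0.13 ± 0.17.

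In U251 PABP-bound RNA only TXNIP (3.76 ± 0.26) and CA12, a further HIF-induced carbonic anhydrase (2.57 ± 0.27), were called among all these lists. The shares over all genes tested were 0.944% higher and 0.263% lower there, and 8.31% higher and 11.7% lower in U343 total RNA. In U343 total RNA, 2 isozymes rose and 1 fell of 18, 1 transporter rose and 2 fell of 13, 1 regulator rose and 3 fell of 17, 3 HIF target genes rose and 2 fell of 13, 1 pentose phosphate gene fell of 9, and 1 pyruvate or gluconeogenesis enzyme rose and 3 fell of 14. The hexokinase-like HKDC1 rose most (2.23 ± 0.29), followed by SLC16A3 (1.15 ± 0.17), and SLC16A7 (-1.45 ± 0.23) and the nucleotide precursor enzyme PRPS2 (-1.02 ± 0.15) fell most. ENO2 rose and LDHB fell here as well, at 0.75 ± 0.13 and -0.50 ± 0.08.

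In U343 PABP-bound RNA, 5 isozymes rose and 4 fell of 18, 2 transporters rose and 5 fell of 13, 3 regulators rose and 5 fell of 17, 6 HIF target genes rose and 4 fell of 13, and 4 pentose phosphate genes rose and 2 fell of 10. Of 14 pyruvate and gluconeogenesis enzymes 9 fell and 2 rose, with a median of -0.64 beside 0.00 over all genes. Over all genes tested in this experiment, 28.5% were called higher and 27.8% lower. CA9 rose most (3.22 ± 0.41), from 0.310 to 2.94 CPM, followed by the gluconeogenesis enzyme FBP1 (2.22 ± 0.38). EPAS1, the HIF2A subunit, fell most (-1.83 ± 0.14), followed by SLC16A7 (-1.82 ± 0.28). SLC16A7 was thus called lower in 3 of the 4 experiments, and SLC16A3 rose in the same 3. The remaining experiment, U251 PABP-bound RNA, called only 0.944% of genes higher and 0.263% lower.

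**Figure D4:**
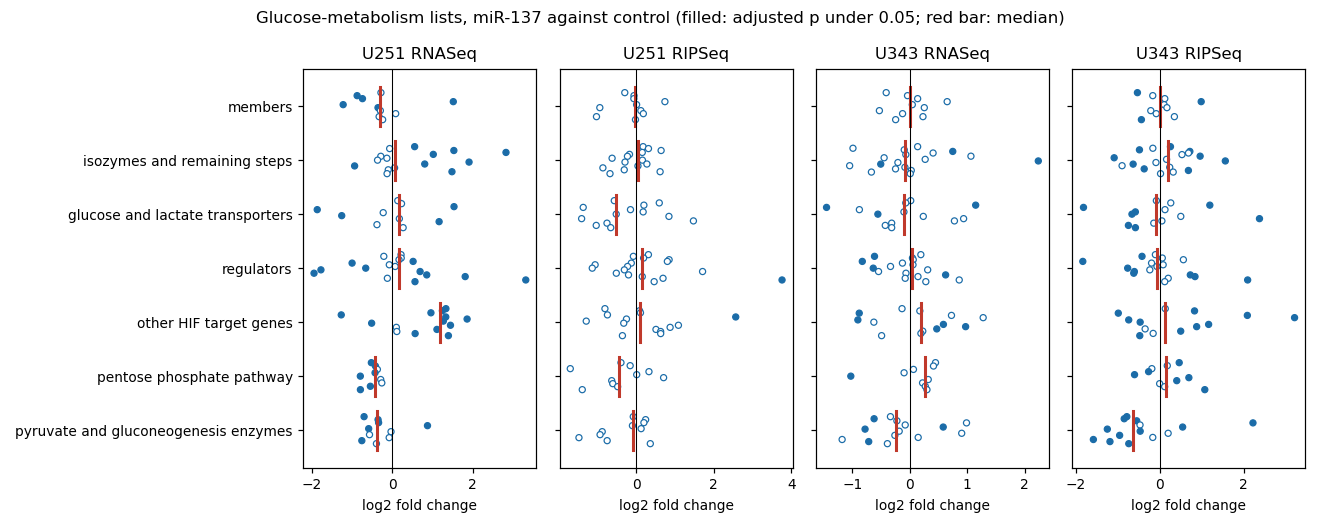
Log2 fold change of miR-137 over control (x axis, own range in each panel) for every tested gene of 7 glucose-metabolism lists in the 4 experiments, with filled points for an edgeR adjusted p under 0.05 and the list's median as a red bar. In U251 RNASeq the median of other HIF target genes is 1.18 and that of the members -0.31.

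Among the genes whose changes were nearest to the members' median pattern over the 4 experiments, of 9308 genes with at least 100 reads on average in each experiment, were ZNF559, ITPR2, ATP5SL and CCDC123. Their root mean square differences from the medians were 0.03 to 0.06 on the log2 scale. The members themselves lay 0.23 (GAPDH) to 1.16 (HK2) from their own medians, so the median describes no single member closely.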

How the data were processed

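Per the study's methods, RMAP placed the reads on hg18, and the authors counted those on the merged exons (super-transcript) of every RefSeq gene. The deposited unit is the count of reads per gene, with no normalization, and all values were whole numbers. The U251 tables list SLC35E2 on 2 lines, of which the first was kept. How multiply matching reads were counted, and whether strand was used, is not given in the sources used here.

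Counts were tested with edgeR 4.0.16 (limma 3.58.1, R 4.3.3), with filterByExpr, TMM, the quasi-likelihood F test and Benjamini-Hochberg adjustment over all genes tested (threshold 0.05), within each experiment and, for interactions, over 8 libraries. CPM are TMM-scaled within each fit, SD and SE rest on 2 libraries per group, and an SE is the log2 fold change divided by the square root of F. The fits were tested on simulated data. The study's rule was rerun with a two-sided Fisher's exact test. Other settings were DESeq2 1.42.0, upper-quartile factors, library totals, no filter, a mean of at least 50 reads, fitting the 8 libraries of a line together, a replicate block, and leaving out single libraries. Deviations of same-numbered control and miR-137 libraries correlated at 0.03 to 0.28, so the numbers were not taken as pairs.

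The members and lists were chosen with earlier results of these data known. The text names all members, and of the other lists, in each miR-137 comparison, the 2 called genes that rose and the 2 that fell most whose higher group averaged 50 reads or more, plus the 5 genes nearest to the members' median pattern, of which 1 is not reported here. Further genes are said to be named after their values were seen. PKM and TIGAR were matched by older symbols. Sequences are from RefSeq (GRCh38.p14).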

Additional observations from a re-analysis of the deposited data

Results flagged for a closer look

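The change after miR-137 transfection differed between U343 and U251 by an edgeR interaction test for 5 results. In total RNA the change in U343 minus that in U251 was 0.60 on the log2 scale for PFKP, 0.87 for GAPDH, 0.83 for ENO1 and 1.26 for LDHA. In PABP-bound RNA it was 1.44 for SLC2A1. The lines also differ in cDNA method and depth, which cannot be told apart from the line. No group held 4 or more libraries, so single libraries were not tested as outliers.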

How the results depend on the processing

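Of 1120 recomputed member values, 984 kept their direction and their side of the threshold or, if uncalled, moved by less than 1 SE. A further 44 lost a call, 71 gained one, 7 changed sign with a call, and 14 uncalled values changed sign and moved by 1 SE or more. These 14 are among the 73 uncalled values that changed sign in all. The sign changes with a call were, in U251 RIPSeq, TPI1 (-0.17 to 0.26), LDHA (-0.60 to 1.16) and GAPDH (-0.19 to 0.16) over the fits that left out 1 library, with a control left out at each end. For the interaction with the cell line in RIPSeq, LDHA ranged from -0.95 to 0.73, without U251 control library 2 and 1. For PABP-bound over total RNA in U251, the miR-137 libraries gave -0.26 for PFKP, 0.49 for ENO1 and 0.42 for LDHA. With 1 library left out, the number of members called ranged from 4 to 9 in U251 RNASeq, 0 to 9 in U251 RIPSeq, 0 to 1 in U343 RNASeq and 0 to 4 in U343 RIPSeq. It ranged from 0 to 6 (U251) and 0 to 1 (U343) for the interaction with assay, from 2 to 5 (RNASeq) and 0 to 5 (RIPSeq) for that with cell line, from 0 to 6 (U251) and 1 to 3 (U343) for PABP-bound over total RNA, and from 9 to 10 between the lines. The fits that left out 1 library leave a single library in its group. The share of all genes called in them also varied widely in U251 RIPSeq, U343 RNASeq, both interactions and U251 PABP-bound over total RNA. There a wide range of members called is no sign that they were less stable than genes in general. That share varied less in the remaining comparisons, U251 RNASeq among them. A joint fit of 8 libraries called 3 members in U251 RNASeq (HK2, GAPDH and ENO1), 2 in U251 RIPSeq and 1 in U343 RNASeq. It called 20.8%, 16.6% and 32.7% of all genes tested, in that order. DESeq2 called 1 member in U343 RNASeq and 2 for the interaction with cell line in RIPSeq, where it called 28.5% and 11.6% of all genes. The miR-137 libraries gave 10 calls in U251 and 0 in U343 for PABP-bound over total RNA, beside 65.9% and 18.1% of all genes. With an odds ratio over 1.5 the study's rule called 2 members in U251 RNASeq and 2 in U251 RIPSeq.

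With the replicate block, 1 member was called in U251 RIPSeq (SLC2A1) and 1 in U343 RNASeq (ALDOA). For the interaction with cell line in RIPSeq 0 were called. There 2 had an unadjusted edgeR p under 0.05, beside 2949 of the 15959 genes tested. These fits called 5.69%, 16.8% and 0.877% of all genes tested, in that order. The other counts of members stayed within 1.5 times. The causes of these shifts were not tested. HK2 in U343 rests on 30 to 127 reads per library.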
